A study of Homo sapiens with 2 samples.

Results

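PRMT5 peaks were examined at a pair of oncogenic microRNA loci, the VMP1 and MIR21 locus on chromosome 17 and the MIR221 and MIR222 locus on the X chromosome. The members are the 6 deposited peaks, of 2840 in all, that overlapped a 150 kb window (chr17:57780000-57930000) or a 50 kb window (chrX:45590000-45640000) by at least 1 base. Each window held 3 of them. The windows are named for the genes they were given for, and the loci were picked from this same peak list with the position, width and score of their peaks known. The values that follow are therefore descriptions of 1 list, with no test.

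The cells were MDA-MB-231, an established human line of triple-negative breast cancer, untreated and grown in serum-containing medium. Chromatin was fixed with formaldehyde, sheared by sonication and precipitated with an antibody to PRMT5, and the recovered DNA made 1 library. A second library, of input DNA from the same line, was not analysed here. There was no replicate, so no value has a spread between cultures, and the read depth is unknown because the list carries no read counts. Gene positions on the build of the peaks, hg19, were not used here. It was therefore not determined on which side of the hairpins, or at which end of the primary transcripts, each peak lay.

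PRMT5 is an arginine methyltransferase that works with its partner WDR77 and adds methyl groups to histones and to splicing factors. MicroRNAs are cut from a hairpin in a longer primary transcript and pair through their seed, a short stretch near the 5′ end, with messenger RNAs that they repress. The microRNA of MIR21 is abundant in many carcinomas and represses growth-restraining genes such as PDCD4. Those of MIR221 and MIR222 repress the cell-cycle inhibitor CDKN1B and, in breast cancer, the oestrogen receptor. VMP1 encodes a membrane protein of the endoplasmic reticulum needed to form autophagosomes.

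All 4 genes matched the RefSeq gene table of GRCh38.p14, from which only names and neighbours were taken. There MIR21 overlapped VMP1 and no other gene, with PTRH2 as the nearest gene on the side of lower coordinates. MIR221 and MIR222 both overlapped the long noncoding RNA gene MIR222HG and were next to each other, with no other gene between them. The hairpin of MIR21 was on the plus strand, and those of MIR221 and MIR222 were on the minus strand.

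The hairpins (RefSeq, GRCh38.p14) are shown because they are what the primary transcripts of these loci carry. They are written 5′ to 3′ with the mature microRNAs listed in the table in capitals. The hairpin of MIR21 has 72 bases, and those of MIR221 and MIR222 have 110 each.
MIR21: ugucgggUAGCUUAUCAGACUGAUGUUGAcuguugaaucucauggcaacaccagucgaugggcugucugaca
MIR221: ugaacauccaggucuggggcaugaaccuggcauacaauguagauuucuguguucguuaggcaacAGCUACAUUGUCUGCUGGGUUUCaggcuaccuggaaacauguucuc
MIR222: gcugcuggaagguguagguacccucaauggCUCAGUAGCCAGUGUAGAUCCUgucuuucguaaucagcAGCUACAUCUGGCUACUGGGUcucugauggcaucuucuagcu

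The mature microRNAs are given next with the seed, bases 2 to 8, in capitals, to show which of the loci make products of the same seed.
hsa-miR-21-5p: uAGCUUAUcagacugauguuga
hsa-miR-221-3p: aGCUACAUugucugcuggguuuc
hsa-miR-222-3p: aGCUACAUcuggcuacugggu
hsa-miR-222-5p: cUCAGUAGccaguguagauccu
The seed of miR-221-3p and miR-222-3p was the same, and no other mature microRNA among the 2370 names in the table had it. These 2 microRNAs were identical over their first 8 bases and at 11 of the 21 positions compared without gaps. The seed of miR-21-5p was shared with miR-590-5p alone, and that of miR-222-5p with no other entry. The listed products of the X chromosome locus thus comprised 2 microRNAs of 1 seed and miR-222-5p of another, and neither seed was that of miR-21-5p.

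A broad peak was the main feature of each window. At the VMP1 and MIR21 window it lay at chr17:57919644-57922557, 2914 bp wide, with a score of 170 (the −log10 of the q-value that the authors' peak caller gave). At the MIR221 and MIR222 window it lay at chrX:45601882-45604179, 2298 bp wide, with a score of 33.3. The peak at the first locus ranked 3 of 2840 by score and 3 by width, and the peak at the second ranked 96 by score and 4 by width. The mitochondrial sequence, listed as 1 peak, holds the first place by width. The broad peaks were thus 1.27 times apart in width, and their scores differed by 137 on the −log10 scale. The first value is a ratio and the second a difference, so they are not set against each other. Only 4 peaks outside the mitochondrial sequence were at least 2 kb wide, 0.141% of 2839, and these were 2 of them. Both loci were picked with these widths known, so that share is given as background.

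On its own chromosome, each broad peak was the widest. The chromosome 17 peak also had the highest score of the 130 peaks there, and the next scored 37.8 with a width of 319 bp. The second-widest peak of chromosome 17 measured 1412 bp. The broad X peak was second by score of 137, after a 635 bp peak that scored 83.7. In width it was followed by a peak of 1732 bp with a score of 32.7, which was also the next score below its own on that chromosome.

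The other 4 peaks in the windows were narrow, at 180 to 336 bp, against a median of 210 bp over the whole list. In the VMP1 and MIR21 window, chr17:57831964-57832224 had a width of 261 bp and a score of 7.56, and chr17:57863896-57864231 had a width of 336 bp and a score of 7.74. Both scores lay just under the list's median of 7.80, at ranks 1482 and 1445. In the MIR221 and MIR222 window, chrX:45617747-45617992 had a width of 246 bp and a score of 15.8, at rank 452. It scored higher than 84.1% of the list and was wider than 66.8% of it. The last, chrX:45601645-45601824, was 180 bp wide and scored 1.72, at rank 2827.

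That weakest peak was close to the lower limit of the list. Its score corresponds to a q-value of 0.0192, and 13 of 2840 peaks scored lower. It ended 57 bp before the broad X peak began. Of the 2839 peaks outside the mitochondrial sequence, 128 (4.51%) had fewer than 100 bp to their nearest peak, which included both peaks of this pair. Of the 66 gaps that short, 1 bordered a peak of at least 2 kb, and it was the gap at this locus. Gaps just over that cut bordered other peaks of at least 2 kb, 125 bp on chromosome 6 and 118 bp on chromosome 2. The gap at this locus is therefore not set apart by its length. With peaks within 1 kb joined, the pair on the X chromosome became a single peak of 2535 bp.

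**Figure D1:**
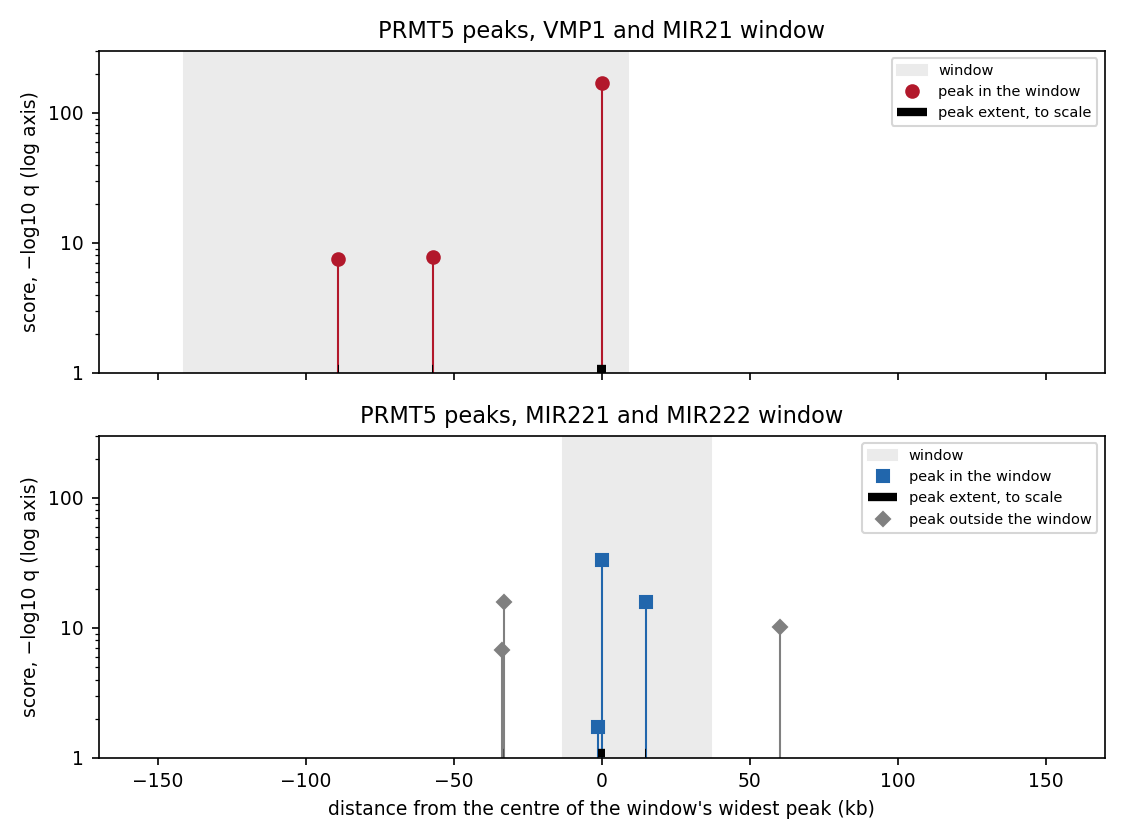
Peaks of the VMP1 and MIR21 window (top, circles) and the MIR221 and MIR222 window (bottom, squares), with the distance in kb from the centre of the widest peak on the horizontal axis and the score (−log10 q) on a logarithmic vertical axis. Grey bands are the windows, diamonds are peaks outside them and black bars at the base show each peak's extent. The chromosome 17 window has a single peak of score 170 and a pair near 7.6, and the X window has peaks of 33.3, 15.8 and 1.72 with further peaks on both sides.

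The peaks were arranged differently at the loci. On chromosome 17 the narrow peaks both lay at lower coordinates than the broad one, 87.4 and 55.4 kb before it, and were 31.7 kb from each other. The broad peak was the last in that window and ended 7443 bp before the window did. On the X chromosome the narrow peaks flanked the broad one, 57 bp before and 13.6 kb after it. Broad peaks held most of the covered bases, 83.0% of those in the chromosome 17 window and 84.4% of those in the X window.

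The surroundings of the windows differed as well. On chromosome 17 the nearest peak at lower coordinates lay 1.04 Mb outside the window, at chr17:56736212-56736661, with a score of 8.71. The nearest at higher coordinates lay 2.44 Mb outside it, at chr17:60372080-60372236, with a score of 4.77. The 3 peaks of the VMP1 and MIR21 window were thus the only ones in a stretch of 3.64 Mb. Of 2815 gaps between neighbouring peaks in the list, 390 were at least as long as the 2.45 Mb that followed the broad peak. On chromosome 17 there were 11 such gaps, and the median gap over the list was 133 kb. Whole stretches of 3.64 Mb with 3 peaks were not counted.

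The window at MIR221 and MIR222 lay within a longer run of peaks. Just below it were chrX:45569298-45569471, with a score of 6.78, and chrX:45569791-45570142, with a score of 15.9, the nearer of them 19.9 kb outside the window. Just above it, by 23.1 kb, was chrX:45663123-45663302, with a score of 10.2. With gaps of up to 50 kb allowed, these 3 peaks and the 3 in the window formed a group of 6 over 94.0 kb, in which the broad peak scored highest and its 57 bp neighbour lowest. Of 1672 such groups in the list, 35 had 6 or more peaks, and 10 of the 35 held no peak from a 1 Mb window with 10 or more peaks. The group at MIR221 and MIR222 was 1 of these 10, although its own 1 Mb window held 8 peaks, not far under the cut.

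For the background, chromosomes 1 to 22 and X were divided into tiles as long as each window. Of the 150 kb tiles, 170 of 20255 (0.839%) held 3 or more peaks, as the VMP1 and MIR21 window did. Of the 50 kb tiles, 123 of 60739 (0.203%) held 3 or more, as the MIR221 and MIR222 window did. Among these tiles, 39 of the 170 and 50 of the 123 had peaks from 1 Mb windows with 10 or more peaks, which neither locus did. Peaks covered 2.34% of the VMP1 and MIR21 window and 5.45% of the MIR221 and MIR222 window, against 0.0249% of chromosomes 1 to 22 and X. The windows were drawn around known peaks and the tiles were not, so nothing is read from the difference.

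**Figure D2:**
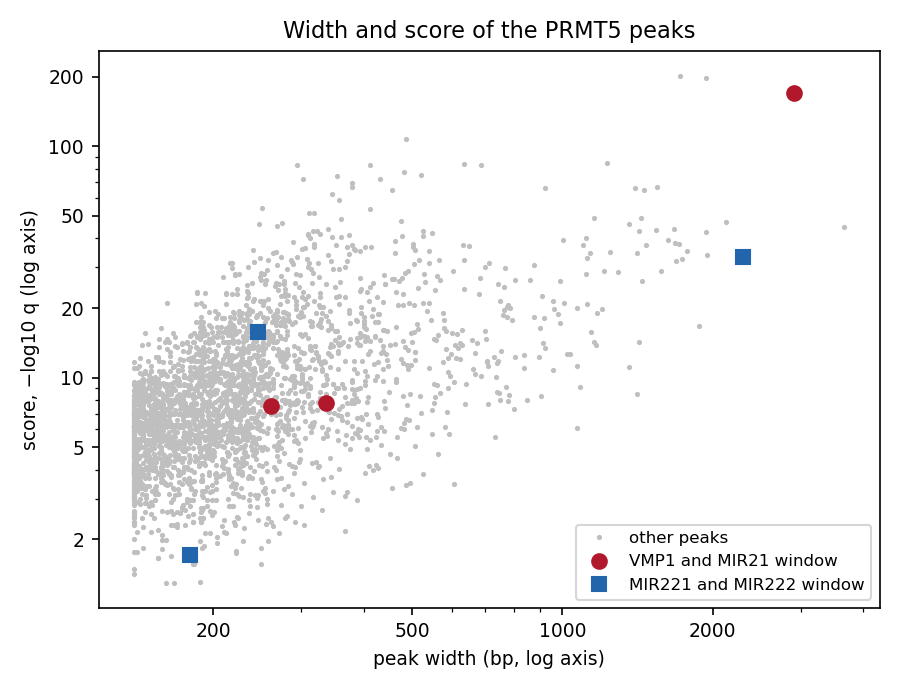
Width in bp (horizontal) and score in −log10 q (vertical), both on logarithmic axes, of the peaks outside the mitochondrial sequence (grey dots), of the VMP1 and MIR21 window (circles) and of the MIR221 and MIR222 window (squares). The broad peaks of 2914 and 2298 bp stand at the right edge, at scores of 170 and 33.3, and the other 4 lie among the narrow peaks.

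Width was also set beside that of the peaks nearest in the score order, the 25 next above and the 25 next below, or as many as there were. The broad X peak was 6.07 times as wide as the median of its 50 score neighbours, 378.5 bp, and the widest of those measured 1943 bp. Its direct neighbours in score, 33.31 and 33.20, were 273 and 295 bp wide. Those 50 scored 30.7 to 37.1. For the broad chromosome 17 peak the same order gave 27 peaks, but their scores ran from 49.0 to 201, so most were not of like score and no ratio to their median is given. The only 2 near it in score, at 201 and 197, measured 1716 and 1938 bp.

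The narrow peaks had widths within the range of their score neighbours. At VMP1 and MIR21, 10 of 50 neighbours were at least as wide as the 261 bp peak and 4 of 50 at least as wide as the 336 bp peak. At MIR221 and MIR222, 28 of 50 were at least as wide as the 246 bp peak and 19 of 38 as the 180 bp peak. The loci were picked with these widths and scores known, so nothing is read from these comparisons.

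**Figure D3:**
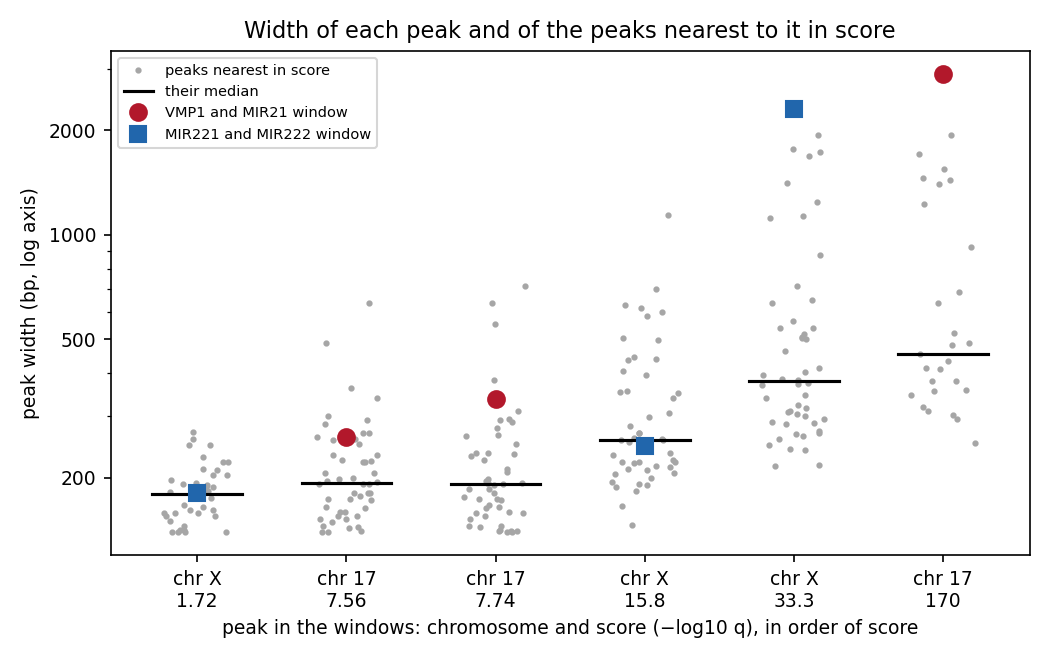
Width in bp (logarithmic axis) of each of the 6 peaks (circles, VMP1 and MIR21 window; squares, MIR221 and MIR222 window), in order of score, beside the widths of the peaks nearest to it in score (grey dots, with their median as a line). The peaks of score 33.3 and 170 lie above every grey dot of their columns, and the other 4 lie among them; the dots in the column of 170 have scores from 49.0 to 201.

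Of the 3 highest-scoring peaks of the list, the chromosome 17 peak was thus the widest. The next below it, at chr1:91852718-91853204, scored 107 and measured 487 bp. The other 2 peaks of at least 2 kb were chr6:58776197-58779861, of 3665 bp and score 44.6, and chr2:92324046-92326168, of 2123 bp and score 46.9. Their 1 Mb windows held 4 peaks on chromosome 6 and 42 peaks on chromosome 2. Both of these scored above the broad X peak and below the broad chromosome 17 peak, and each had another peak within 1 kb, as the X peak did. The chromosome 17 peak had none nearer than 55.4 kb. Lack of a neighbour within 1 kb was not unusual among peaks wider than 1 kb. Of 54 such peaks outside the mitochondrial sequence, 27 had another peak within 1 kb. How many had none within 55.4 kb was not counted.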

How the data were processed

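The deposited list holds chromosome, start, end, name and the −log10 of the q-value for each peak of the PRMT5 library. The file has no header, so the unit of this score was inferred: its minimum, 1.30279, lies just above −log10 of 0.05, 1.30103. Per the submitters' processing notes, CASAVA 1.4, Bowtie2 and MACS2 were used with hg19. Their roles and settings, the use of the input as control and the handling of duplicate reads are not given in the sources used here, and each can decide whether a region passes as a peak and how wide it is.

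Starts were converted to count from 1. Ranks run from the highest value, and ties share the better rank. A tile held a peak if the peak's midpoint fell in it. Chromosome lengths came from GenomeInfoDb 1.38.1. All 6 peaks in the windows and the 4 genes were to be named, with their neighbours in score order. The members and lists were chosen with earlier results of these data known, and no test was made. The comparisons with tiles, with the peaks nearest in score and with groups of peaks, and the widths and gaps counted, were chosen after seeing the data. Planned counts of peaks near other microRNA hairpins, microRNA targets, microRNA processing genes and autophagy genes need hg19 gene positions and were not made. Alternatives were the highest-scoring 50% and 25%, merging within 1 kb, midpoints, wider windows and other ranks. Interval counting was tested on simulated data. Scripts ran under Python 3.11.15 with pandas 2.3.3, numpy 2.4.6 and scipy 1.17.1, and figures were drawn with matplotlib 3.10.9.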

Additional observations from a re-analysis of the deposited data

How the results depend on the processing

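In the highest-scoring 50% and 25% of the list, the VMP1 and MIR21 window held 1 peak in place of 3 and was covered to 1.94%, because both narrow peaks scored under the median. The MIR221 and MIR222 window then held 2 and was covered to 5.09%. Widened by 50 kb on each side, it held 6 peaks, and the VMP1 and MIR21 window still held 3. The highest-scoring peak of the MIR221 and MIR222 window moved from rank 96 by score to 4 by width. Without peaks of 1 Mb windows with 10 or more peaks, its rank by score was 69. The chromosome 17 peak ranked 3 in all of these orders. Merging within 1 kb left 2 peaks in the X window, and counting midpoints changed neither count. The alternatives for hairpins were not run, as they need hg19 gene positions. What depth limits cannot be stated without read counts. No paired analysis was possible because the ChIP and the input are single libraries.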
